A study of Homo sapiens with 6 samples.

Results

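The genes described here are regulators of the epithelial-mesenchymal transition, chosen by symbol from a fixed list of 10: the transcription factors SNAI1, SNAI2, ZEB1, ZEB2 and TWIST1, the mesenchymal filament gene VIM, and the epithelial factors ESRP1, ESRP2, GRHL2 and OVOL1. Of these, 9 had a row among the 16781 genes of the expression table, and TWIST1 had none and was not analysed here. Messenger RNA was sequenced in 6 libraries of Caco-2, a human colon adenocarcinoma cell line that can form an enterocyte-like layer. The 3 CBS KO libraries came from cells infected with a lentivirus that carried Cas9, a guide against CBS (cystathionine beta-synthase, an enzyme that makes hydrogen sulfide) and a puromycin resistance gene, and then selected with puromycin. The 3 WT libraries came from Caco-2 cells of WT genotype, with no infected control among the groups compared, and effects of the knockout therefore cannot be told apart from those of infection and selection. The design text says that resistant cells were collected and does not say whether they were a clone, and both groups share the culture medium with serum.

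In this transition, epithelial cells loosen their junctions and take on the shape and motility of mesenchymal cells. SNAI, ZEB and TWIST factors bind E-box motifs in the promoters of epithelial genes and repress them. GRHL2 and OVOL factors keep epithelial genes on and hold ZEB1 down, and the ESRP proteins maintain the epithelial pattern of splicing. In intestinal epithelium these factors are studied in wound closure and in tumour invasion.

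Deposited read counts summed to 12805180 to 14307287 in the CBS KO libraries and to 16097680 to 16171550 in the WT libraries, and the 10 most abundant genes took 7.78 to 8.85% of them in CBS KO against 5.22 to 5.51% in WT. CBS, the targeted gene, stood at 24.6, 18.5 and 25.4 CPM (read counts relative to the library total, scaled between libraries by TMM, which centres most genes on no change) in the CBS KO libraries and at 48.8, 53.0 and 50.6 CPM in the WT libraries, a 2.22-fold fall (log2 fold change -1.15, SE 0.10, adjusted p = 1.18e-08, edgeR). The 15 intestinal epithelial marker genes in the table summed to 8000 to 8520 CPM in CBS KO and 6730 to 7160 CPM in WT, with CDX1 at 0 in at least 4 libraries. The largest part was KRT8, a keratin of simple epithelia in general (2890 ± 231 CPM in CBS KO, 2040 ± 255 CPM in WT). Of 14 tested, 10 were higher and 3 lower with TMM, against 38.4% and 38.9% of all genes. With the library total 5 were higher and 4 lower, against 22.8% and 56.8% of all genes. With TPM 4 were higher and 7 lower, against 15.2% and 67.6% of all genes. The 3 lower with TMM, named after their values were seen, were CDX2 (3.83-fold), HNF4A (2.37-fold) and VIL1 (1.25-fold). Of 14 genes listed for RNA quality and stress at handling, 4 had a row, and the mitochondrial transcripts, MALAT1 and NEAT1 had none. The 4 immediate early and heat shock genes (FOS, JUN, HSPA1A and HSPA1B) summed to 12600 to 15000 CPM in CBS KO and 544 to 600 CPM in WT. All 4 were called higher, where 38.4% of all genes were. EGR1, another immediate early gene, was lower (12 ± 1.33 CPM in CBS KO, 68.8 ± 8.60 CPM in WT). The part of these stress genes in the results below was not tested. No label states that libraries of 1 group were grown as separate cultures, and p-values thus measure the spread of these libraries alone, some or all of which may be technical.

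Of the 9 listed regulators, 5 (SNAI1, ESRP1, ESRP2, GRHL2 and OVOL1) had enough reads for edgeR's test of CBS KO over WT, run on 13028 genes, and a gene was called at a Benjamini-Hochberg adjusted p under 0.05. SNAI1 and ESRP1 were called higher, ESRP2 and GRHL2 were called lower, and OVOL1 was not called. Among all genes tested, 77.2% were called, 38.4% higher and 38.9% lower, so a call by itself does not set a regulator apart. Likewise, of all genes tested, 38.9% were higher in CBS KO without overlap of the groups' CPM, and 40.1% were lower without overlap. The changes in SNAI1 and ESRP2 were large beside those of other genes: 2.13% of the genes tested rose at least as far as SNAI1, 4.05% fell at least as far as ESRP2, and 12.5% fell at least as far as GRHL2. In bulk RNA, fewer cells that express a gene and less RNA of it per cell cannot be told apart.

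**Figure D1:**
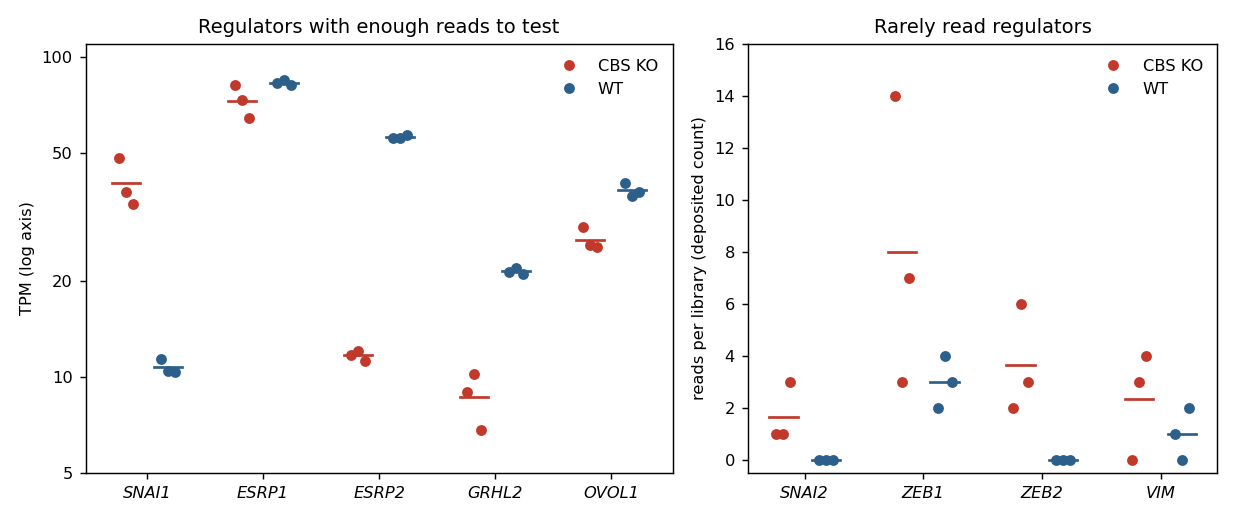
Levels of 9 regulators in each library, CBS KO (red) left of WT (blue), with a line at the mean of 3 libraries. The left panel shows length-corrected levels (TPM) on a log axis for the 5 tested genes, and the right panel shows reads per library for the 4 rarely read genes, none of which exceeded 14 reads.

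SNAI1, the zinc finger repressor of E-cadherin and other junction genes, was the one mesenchymal factor with a substantial level. It stood at 48.3, 37.8 and 34.8 TPM (a level corrected for gene length and scaled to a fixed sum per library) in the CBS KO libraries, against 11.4, 10.4 and 10.4 TPM in the WT libraries. The lowest CBS KO library lay above the highest WT library by a wide margin, and replicate 1 was the highest in CBS KO. In TMM-scaled counts it stood at 45.7 ± 5.05 CPM in CBS KO and 8.13 ± 0.428 CPM in WT (SD, n = 3 each). From these counts, edgeR gave SNAI1 a log2 fold change of 2.49 (SE 0.10, adjusted p = 1.02e-12), against 1.81 with log2(TPM + 1). Within a library, SNAI1 lay at or above 82.2 to 85.3% of all listed genes in CBS KO and 49.1 to 50.6% in WT. SNAI1 (Entrez 6615) lies on chromosome 20 at 49982980 to 49988886 in GRCh38, and no other RefSeq gene overlaps it.

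The other mesenchymal factors were close to absent in both groups. SNAI2, the factor also called Slug, had 1, 1 and 3 reads in the CBS KO libraries and 0 in each WT library. ZEB1, the zinc finger repressor that GRHL2 and OVOL factors oppose, had 14, 3 and 7 reads in CBS KO and 2, 4 and 3 reads in WT. Its relative ZEB2 had 2, 6 and 3 reads in CBS KO and 0 in each WT library. VIM, the intermediate filament of mesenchymal cells, had 0, 3 and 4 reads in CBS KO and 1, 0 and 2 reads in WT. With 3 counts over the group as the limit, 0 reads in WT still permit 0.0548 CPM.

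The pooled level of SNAI2 in CBS KO was 0.139 CPM (exact 95% interval 0.0453 to 0.325), which is 2.54 times that limit, and its interval reaches below it. That of ZEB2 was 0.307 CPM (interval 0.153 to 0.549), which is 5.59 times the limit. The ratio of summed reads was 4.07 for ZEB1 (24 reads in CBS KO, of which replicate 1 held 14, and 9 reads in WT, exact 95% interval 1.83 to 9.95) and 3.56 for VIM (7 reads in CBS KO and 3 in WT, interval 0.813 to 21.3). The interval of VIM includes 1, so no difference was detectable for it at this depth. The intervals cover counting error only. Without a filter on low counts, edgeR called ZEB1 (adjusted p = 0.00453), ZEB2 (adjusted p = 0.000941) and SNAI2 (adjusted p = 0.0237) higher, where 30.3% of all genes were called higher. DESeq2 called ZEB1 (adjusted p = 0.0281) and ZEB2 (adjusted p = 0.00423) but not SNAI2 (adjusted p = 0.0943), where 30.8% were called higher. The largest of these pooled levels in CBS KO was 0.669 CPM, for ZEB1, so these calls concern a trace of RNA. ZEB1 and VIM lie on chromosome 10, at 31318417 to 31529804 and 17228241 to 17237593, ZEB2 on chromosome 2 at 144384081 to 144520119 and SNAI2 on chromosome 8 at 48917598 to 48921429 (GRCh38). Antisense genes overlap ZEB1, ZEB2 and VIM, and their reads cannot be told apart here.

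ESRP2, an epithelial splicing regulator, had the largest fall among the tested regulators. Its level was 11.73, 12.03 and 11.2 TPM in the CBS KO libraries and 55.94, 55.87 and 56.98 TPM in the WT libraries, with no overlap and little spread in either group. In TMM-scaled counts it stood at 36.3 ± 0.887 CPM in CBS KO and 107 ± 0.409 CPM in WT (SD, n = 3 each). From these counts, edgeR gave ESRP2 a log2 fold change of -1.57 (SE 0.06, adjusted p = 1.67e-12), against -2.18 with log2(TPM + 1). ESRP2 (Entrez 80004) lies on chromosome 16 at 68229033 to 68236127 and overlaps NFATC3 in RefSeq. The library protocol keeps strand, but its use in the authors' counting is not given, so reads of the overlap could have been assigned to either gene. NFATC3, a transcription factor of calcium signalling named for this reason, was 1.26-fold higher in CBS KO (51.6 ± 2.41 CPM, against 40.8 ± 1.46 CPM in WT, SD, n = 3 each).

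ESRP1, the paralog of ESRP2 with a similar role in splicing, changed much less. Its TMM-scaled level was 212, 200 and 191 CPM in the CBS KO libraries and 155, 158 and 151 CPM in the WT libraries, without overlap (log2 fold change 0.38, SE 0.06, adjusted p = 1.30e-05, edgeR). On the TPM scale, however, it stood at 81.6, 73.2 and 64.6 in CBS KO and at 83.2, 85.1 and 81.6 in WT. The direction of ESRP1 thus turned with the scaling, as detailed below.

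The ratio of the paralogs in the same library does not depend on scaling between libraries, but it does depend on the gene lengths divided by. The length implied for ESRP2 was 3.84 ± 0.0742 kb in CBS KO and 3.53 ± 0.0195 kb in WT, as described at the end. ESRP1 FPKM (a read level corrected for gene length and library total) over ESRP2 FPKM was 6.95, 6.08 and 5.77 in the CBS KO libraries and 1.49, 1.52 and 1.43 in the WT libraries, a 4.22-fold difference. ESRP2 made up 12.6 to 14.8% of the summed FPKM of both genes in CBS KO and 39.6 to 41.1% in WT. The exact two-sided permutation test gave p = 0.1 for the ratio, which is the smallest value that 3 against 3 libraries allow. The 8 ratios between regulators that were computed all gave this value, and their adjusted p was also 0.1.

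GRHL2, a grainyhead factor that activates junction genes and represses ZEB1, had 8.93, 10.2 and 6.82 TPM in the CBS KO libraries and 21.3, 21.9 and 21.0 TPM in the WT libraries. The groups did not overlap, and the CBS KO libraries were more widely spread than the WT libraries. From TMM-scaled counts, edgeR gave GRHL2 a log2 fold change of -0.95 (SE 0.07, adjusted p = 4.00e-09), against -1.23 with log2(TPM + 1). OVOL1, a zinc finger factor that represses ZEB1 and favours the epithelial state, had 60.7, 56.3 and 59.5 CPM in the CBS KO libraries and 58.9, 54.1 and 55.7 CPM in the WT libraries. These ranges overlapped, and the log2 fold change of 0.07 (SE 0.07) missed the threshold (adjusted p = 0.381, edgeR). The same gene had 29.3, 25.8 and 25.5 TPM in CBS KO and 40.3, 36.9 and 37.9 TPM in WT, where the groups did not overlap. GRHL2 (Entrez 79977) and ESRP1 (Entrez 54845) lie on chromosome 8, at 101492439 to 101681200 and 94641174 to 94707466, and OVOL1 (Entrez 5017) lies on chromosome 11 at 65787063 to 65797214. OVOL1 is overlapped by the antisense gene OVOL1-AS1, which has no value here.

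**Figure D2:**
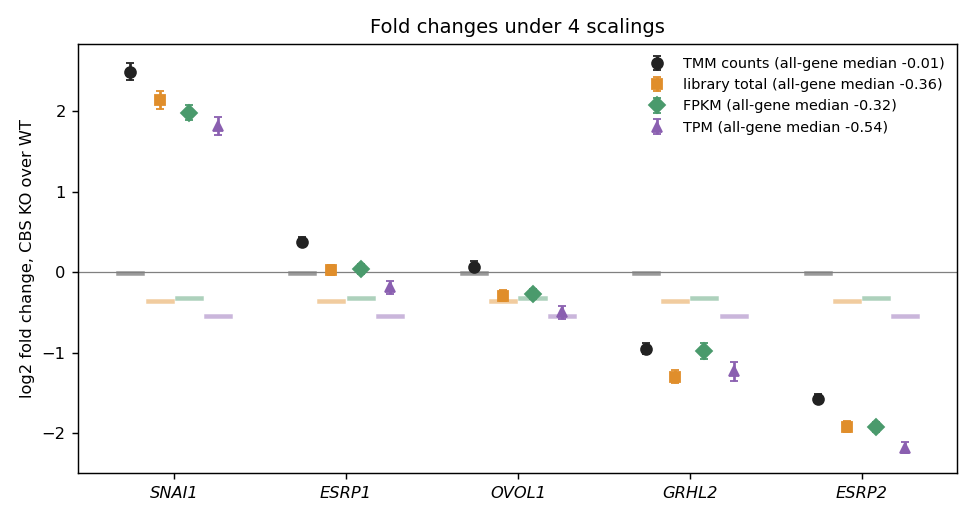
Log2 fold changes of CBS KO over WT for the 5 tested regulators (points, bars are SE) under TMM, the library total, FPKM and TPM, with a short bar at the median of all genes in the same fit. SNAI1 stays above and GRHL2 and ESRP2 stay below both 0 and the all-gene median, while ESRP1 and OVOL1 lie between 0.38 and -0.50.

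The scaling of the libraries moved the median of all genes. FPKM and TPM also divide by a gene length in each library, so with them single genes moved by differing amounts. Over all genes, the median log2 fold change stood at -0.01 under TMM, at -0.36 under the library total, at -0.32 with log2(FPKM + 1) and at -0.54 with log2(TPM + 1). OVOL1 was called lower with the library total (log2 fold change -0.29), FPKM (-0.27) and TPM (-0.50), and ESRP1 was not called with the library total (0.03) or FPKM (0.04) and was called lower with TPM (-0.19, adjusted p = 0.0380, limma). Relative to the all-gene median of the same fit, ESRP1 lay 0.35 to 0.39 above and OVOL1 0.04 to 0.08 above under these 4 scalings. SNAI1 lay 2.3 to 2.5 above, ESRP2 1.56 to 1.64 below and GRHL2 0.66 to 0.94 below. With TPM 1 regulator was called higher and 4 lower, against 15.2% and 67.6% of all genes. With the library total 1 was called higher and 3 lower, against 22.8% and 56.8% of all genes, and with log2(FPKM + 1) likewise 1 and 3, against 22.9% and 57.8%, or 22.8% and 57.6% with log2(FPKM + 0.1).

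The order of the regulators by TPM differed between the groups. In CBS KO it ran ESRP1 (73.1 ± 8.47), SNAI1 (40.3 ± 7.10), OVOL1 (26.9 ± 2.15), ESRP2 (11.7 ± 0.42) and GRHL2 (8.65 ± 1.70). In WT it ran ESRP1 (83.3 ± 1.74), ESRP2 (56.3 ± 0.62), OVOL1 (38.4 ± 1.74), GRHL2 (21.4 ± 0.46) and SNAI1 (10.7 ± 0.56 TPM, SD, n = 3 in each group). No 2 neighbours among these 5 overlapped over the libraries of a group. VIM, ZEB1, SNAI2 and ZEB2 followed at a mean of 0.15 TPM or less in CBS KO and 0.0633 TPM or less in WT, and in CBS KO each overlapped its neighbour.

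**Figure D3:**
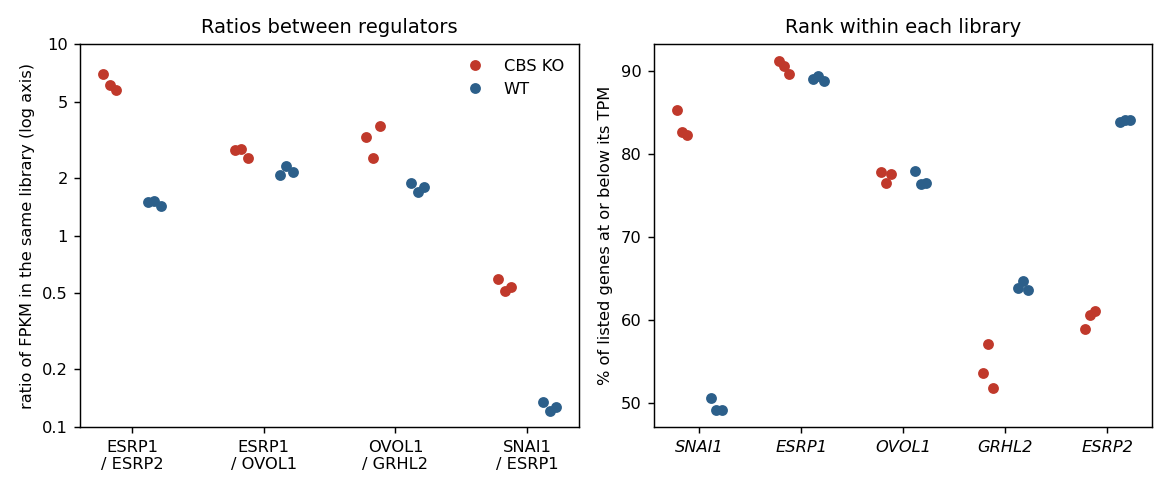
Measures that need no scaling between libraries but depend on the gene lengths divided by, CBS KO (red) left of WT (blue), 1 point per library. Left, ratios of FPKM between 2 regulators of the same library on a log axis, where ESRP1 over ESRP2 is 5.77 to 6.95 in CBS KO and 1.43 to 1.52 in WT. Right, the percentage of listed genes at or below the regulator's TPM, where SNAI1 lies above ESRP2 in CBS KO and below it in WT.

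By rank within a library, ESRP2 lay at or above 58.8 to 61.0% of listed genes in CBS KO and 83.8 to 84.1% in WT. GRHL2 lay at 51.7 to 57.1% in CBS KO and 63.5 to 64.6% in WT. OVOL1 lay at 76.4 to 77.8% in CBS KO and 76.3 to 77.9% in WT, so its ranks overlapped. ESRP1 lay at 89.6 to 91.1% in CBS KO and 88.8 to 89.3% in WT, which did not overlap. SNAI1 FPKM over ESRP2 FPKM was 3.46 ± 0.576 in CBS KO and 0.19 ± 0.0111 in WT, and SNAI1 over GRHL2 was 4.74 ± 0.904 in CBS KO and 0.501 ± 0.0303 in WT (SD, n = 3 each).

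Among 10888 genes averaging 5 CPM or more, the 3 whose centred log2 CPM lay nearest to that of SNAI1 over the 6 libraries were ZFP36, an mRNA decay factor (distance 0.152), the GTPase GEM (0.188) and the sterol carrier STARD4 (0.193). ZFP36 stood at 128 CPM in CBS KO and 23.0 CPM in WT. Nearest to ESRP2 were USP5, a deubiquitinase (0.0652), MTG1, a mitochondrial ribosome GTPase (0.0723), and SUPT16H, a histone chaperone subunit (0.0875). Nearest to GRHL2 were ZMYND8 (0.0370), DOCK9 (0.0438) and TRPV3 (0.0474), to ESRP1 MTDH (0.0291), KATNA1 (0.0314) and C2orf49 (0.0355), and to OVOL1 HELZ2 (0.0483), PTPN21 (0.0643) and SRGAP2 (0.0663). With 2 groups, this measure reflects mainly the size of the difference between them.

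Of the other transcription factors of the transition, 11 of 14 in the table were tested, and 8 were higher, 2 lower and 1 not called (median log2 fold change 0.38, against -0.01 for all genes). ETS1, a factor active in invasive cells, rose 5.22-fold (7.85 ± 0.442 CPM in CBS KO, 1.5 ± 0.122 CPM in WT), and the AP-1 subunit FOSL1 3.09-fold. Of the basic helix-loop-helix factors that bind E-boxes, TCF12 rose 2.29-fold and TCF4 fell 1.93-fold. SNAI3, the remaining relative of SNAI1, chosen after its value was known, fell 1.91-fold (1.85 ± 0.632 CPM in CBS KO, 3.53 ± 0.2 CPM in WT). Among all genes 38.4% were higher and 38.9% lower. With TPM 3 of 10 were higher and 5 lower, against 15.2% and 67.6% of all genes, and the list's median was -0.17, which is 0.37 above that of all genes.

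Of 15 other epithelial guard factors tested, 7 were higher, 6 lower and 2 not called (median -0.12), which is 46.7% and 40%, near the 38.4% and 38.9% of all genes. With TPM 3 of 13 were higher and 8 lower (23.1% and 61.5%, against 15.2% and 67.6% of all genes). KLF4, an epithelial differentiation factor, stood at 82.2 ± 8.34 CPM in CBS KO and 7.60 ± 0.480 CPM in WT. ELF3 rose 3.28-fold and TFCP2L1 2.96-fold, while CDX2, the intestinal identity factor, fell 3.83-fold. The nearest relatives of the members, named after their values were seen, were both higher with TMM: GRHL1 1.63-fold (30.0 ± 2.47 CPM in CBS KO, 18.4 ± 0.503 CPM in WT) and OVOL2 2.09-fold (5.61 ± 0.674 CPM in CBS KO, 2.68 ± 0.376 CPM in WT). With TPM their log2 fold changes were smaller, 0.13 for GRHL1 and 0.39 for OVOL2, where the median of all genes was -0.54. Relative to GRHL2 at 25.8 ± 1.75 CPM in CBS KO and 49.8 ± 0.275 CPM in WT, the direction in GRHL1 was the opposite one.

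Mesenchymal effector genes were uneven. Of the 30 with a row, 24 were tested, and 13 were higher, 6 lower and 5 not called (median 0.54), which is 54.2% and 25%, against 38.4% and 38.9% of all genes. With TPM 8 of 22 were higher and 10 lower (36.4% and 45.5%, against 15.2% and 67.6% of all genes). ITGA5, a fibronectin receptor subunit, and LOX, a collagen crosslinking enzyme, rose 8.28-fold and 8.55-fold and reached 226 ± 0.537 and 140 ± 9.89 CPM in CBS KO, against 27.3 ± 2.22 and 16.4 ± 1.55 CPM in WT. FN1, the matrix protein fibronectin, fell 1.30-fold (699 ± 36.5 CPM in CBS KO, 911 ± 44.0 CPM in WT) and PDGFRB fell 4.04-fold. CDH2, the mesenchymal N-cadherin, had 5 reads in all CBS KO libraries together and 14 in all WT libraries and was not tested. The list's median was 0.19 with the library total and -0.05 with TPM, which is 0.55 and 0.49 above that of all genes.

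The 8 fibroblast markers in the table summed to 192 to 203 CPM in CBS KO and 228 to 258 CPM in WT, mostly COL1A1 (181 ± 8.21 CPM in CBS KO, 197 ± 14.7 CPM in WT). Of the 5 tested 1 was higher and 3 lower, and COL1A2 and THY1 were at 0 in at least 4 libraries. Endothelial markers summed to 23.3 to 24.0 CPM in CBS KO and 29.1 to 33.5 CPM in WT (1 higher and 2 lower of 3 tested). Leukocyte markers summed to 135 to 153 CPM in CBS KO and 50.8 to 60.8 CPM in WT (4 higher and 1 lower of 5 tested, where 38.4% and 38.9% of all genes were so called), while PTPRC, their defining gene, was at 0 in at least 4 libraries. The part of these cell types in the results was not tested. Of the fibroblast markers COL1A1, COL1A2, COL3A1, LUM and PDGFRB are also mesenchymal effectors, so these lists are not independent.

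Epithelial genes that SNAI or ZEB factors repress or that GRHL2 maintains gave counts that turned with the scaling. With TMM, of 35 tested 25 were higher, 4 lower and 6 not called (71.4% higher and 11.4% lower, against 38.4% and 38.9% of all genes), with a median of 0.43. With TPM 11 were higher and 18 lower (31.4% and 51.4%, against 15.2% and 67.6% of all genes). CDH1, E-cadherin, stood at 746 ± 32.5 CPM in CBS KO and 749 ± 26.1 CPM in WT and did not pass (log2 fold change -0.00, SE 0.06, adjusted p = 0.946, edgeR). It was called lower with the library total (-0.36), FPKM (-0.36) and TPM (-0.59), close to the all-gene medians of those fits. EPCAM, an epithelial adhesion protein, reached 1120 ± 21.5 CPM in CBS KO against 528 ± 11.2 CPM in WT. CLDN4 and CLDN3, tight junction claudins, rose 3.48-fold and 2.28-fold, the desmosomal cadherin DSC2 2.77-fold and the membrane protease PRSS8 2.29-fold. The 4 genes called lower, MARVELD2, PKP2, ERBB3 and PKP3, were named after their values were seen, and MARVELD2, a tricellular junction protein, fell furthest (1.52-fold). The list's median was 0.07 with the library total and -0.16 with TPM, which is 0.44 and 0.38 above that of all genes.

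**Figure D4:**
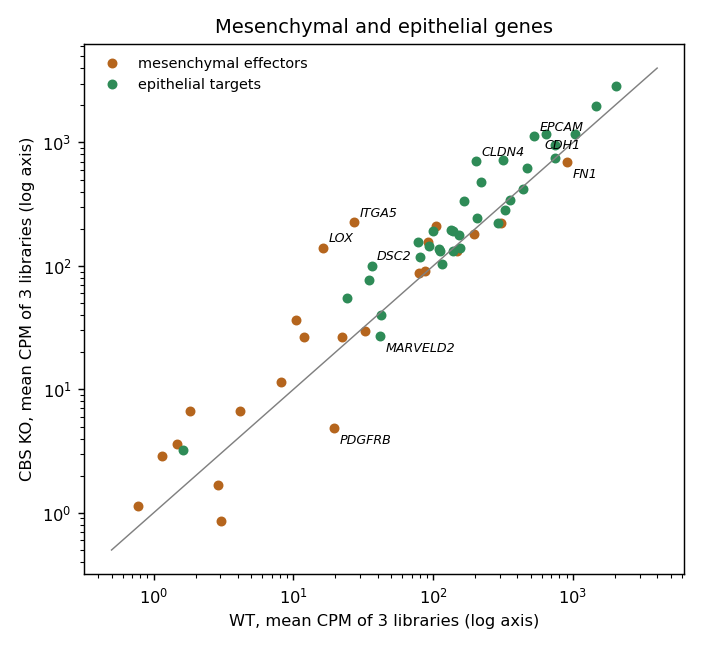
Mean CPM of 3 libraries in CBS KO (vertical) against WT (horizontal), both on log axes, for tested mesenchymal effectors (brown) and epithelial targets (green), with the line of equal levels. CDH1 lies on the line at 746 CPM in CBS KO and 749 CPM in WT, and ITGA5 lies above it at 226 CPM in CBS KO and 27.3 CPM in WT.

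Sequences upstream of 3 epithelial genes are shown because they hold the E-box CACCTG, or its reverse complement CAGGTG, which SNAI and ZEB zinc fingers are known to bind. Each is read 5′ to 3′ on the strand of the gene from the RefSeq table (GRCh38.p14) and stops before the first annotated exon, with the E-box in capitals. They come from MUC1, the membrane mucin (chr1:155192917-155193165, minus strand), RAB25, a GTPase of epithelial vesicle traffic (chr1:156060910-156061159, plus strand), and AP1M2, a subunit of the epithelial sorting adaptor (chr19:10587316-10587562, minus strand).
MUC1: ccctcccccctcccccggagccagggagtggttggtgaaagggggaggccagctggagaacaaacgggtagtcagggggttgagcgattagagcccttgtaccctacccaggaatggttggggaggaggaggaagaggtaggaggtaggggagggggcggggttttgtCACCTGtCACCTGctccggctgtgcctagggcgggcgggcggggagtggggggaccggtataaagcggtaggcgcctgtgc
RAB25: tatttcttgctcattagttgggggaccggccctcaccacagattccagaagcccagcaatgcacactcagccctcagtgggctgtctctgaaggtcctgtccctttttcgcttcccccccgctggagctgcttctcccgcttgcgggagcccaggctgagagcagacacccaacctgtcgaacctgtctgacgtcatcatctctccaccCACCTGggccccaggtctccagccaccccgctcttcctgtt
AP1M2: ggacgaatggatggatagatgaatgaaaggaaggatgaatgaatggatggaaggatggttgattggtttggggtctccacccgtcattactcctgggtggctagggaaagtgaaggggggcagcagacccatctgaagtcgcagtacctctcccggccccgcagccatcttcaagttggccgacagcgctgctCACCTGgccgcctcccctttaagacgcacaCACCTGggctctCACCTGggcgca
MUC1 stood at 3.25 ± 0.885 CPM in CBS KO and 1.61 ± 0.438 CPM in WT (2.01-fold higher), RAB25 at 117 ± 14.0 CPM in CBS KO and 80.3 ± 2.2 CPM in WT (1.46-fold higher, but a log2 fold change of -0.04 with TPM), and AP1M2 at 104 ± 9.28 CPM in CBS KO and 115 ± 2.45 CPM in WT (adjusted p = 0.0653, edgeR, not called). They were chosen after their values were seen, from the genes with a match in exon-free sequence. DSP, DSC2, DSG2 and MYO5B also had such a match, were called higher with TMM, and are not shown.

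Of the 35 epithelial genes 21 had upstream sequence in the table, and 14 of these held CACCTG or CAGGTG within 250 bases before at least 1 of their starts, on either strand. Counted by start, 16 of 28 (57.1%) held it, against 17.5% of all 35116 starts in the table. The list was itself chosen for repression by SNAI or ZEB factors or upkeep by GRHL2, so this share is not independent of that choice. Genes with more than 1 start count more than once in it. Of the 14 genes with a match, 13 were called higher and 1 was not called (edgeR with TMM), where 38.4% of all genes and 71.4% of the whole list were called higher, and 6 of the 13 had a log2 fold change below 0 with TPM. Of the 7 without a match, 5 were called higher, 1 lower and 1 was not called. With TPM, 7 of the 14 genes with a match and 5 of the 7 without had a log2 fold change below 0, where the median of all genes was -0.54. Whether the genes with and without a match differ was not tested, and a match is a description of letters and not of binding. Among the regulators, the table held sequence for VIM, ZEB1 and ZEB2.

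Of 17 tested splicing factors that act in the transition beside the ESRP proteins, 6 were higher, 4 lower and 7 not called (median 0.05), which is 35.3% higher and 23.5% lower, against 38.4% and 38.9% of all genes. With TPM 1 of 16 was higher and 12 lower (6.25% and 75%, against 15.2% and 67.6% of all genes). MBNL2, a muscleblind factor, rose 3.21-fold and QKI, which favours circular and mesenchymal splice forms, 1.96-fold (57.1 ± 11.3 CPM in CBS KO, 29.1 ± 2.26 CPM in WT), but QKI was not called with FPKM (adjusted p = 0.0599, limma) or TPM (adjusted p = 0.373, limma). HNRNPM, which competes with ESRP proteins for shared sites, fell 3.18-fold (106 ± 2.97 CPM in CBS KO, 338 ± 24.9 CPM in WT). RBM24 had 127 reads in CBS KO and 4 in WT, so the size of its rise rests on few reads. RBFOX2, which favours mesenchymal splice forms, was named after its value was seen and stood at 123 ± 4.32 CPM in CBS KO and 129 ± 3.04 CPM in WT (adjusted p = 0.298, edgeR).

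Of 17 tested genes whose transcripts the ESRP proteins splice, 7 were higher, 5 lower and 5 not called (median 0.13), which is 41.2% higher and 29.4% lower, against 38.4% and 38.9% of all genes. With TPM 2 were higher and 10 lower (11.8% and 58.8%, against 15.2% and 67.6% of all genes). FGFR2, whose epithelial exon is the best known ESRP target, fell to 10.7 ± 0.382 CPM in CBS KO, against 65.4 ± 1.57 CPM in WT (6.12-fold). EXOC7, an exocyst subunit, fell 2.73-fold, the laminin receptor subunit ITGA6 rose 3.15-fold and the GTPase RAC1 1.81-fold. CD44 was not tested, at a level no higher than 0.22 CPM in any library. These are levels of whole genes, and no isoform was measured.

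Corepressors that SNAI and ZEB factors recruit were lower in 11 of 23 cases, higher in 6 and not called in 6 (median -0.08), which is 47.8% lower and 26.1% higher, against 38.9% and 38.4% of all genes. PARP1 fell 2.61-fold, the scaffold SIN3A 2.37-fold and the histone methyltransferase EHMT2 2.13-fold. LOXL2, a lysyl oxidase known to stabilise SNAI1, rose 2.51-fold at a low level (2.90 ± 0.244 CPM in CBS KO, 1.15 ± 0.0557 CPM in WT). With TPM 19 of 22 were called lower (86.4%, against 67.6% of all genes, limma), and the median lay 0.15 below that of all genes.

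Genes that control SNAI1 and TWIST1 protein were higher in 11 of 26 cases, lower in 8 and not called in 7 (median 0.05), which is 42.3% higher and 30.8% lower, near the 38.4% and 38.9% of all genes. With TPM 1 was higher and 19 lower (3.85% and 73.1%, against 15.2% and 67.6% of all genes). USP27X, a deubiquitinase that stabilises SNAI1, fell 4.67-fold, and CTDSP1, a phosphatase that does likewise, fell 2.85-fold. BTRC, the ubiquitin ligase receptor that marks phosphorylated SNAI1 for degradation, fell 1.92-fold, and the kinase CSNK1E rose 2.05-fold. GSK3B, the kinase that marks SNAI1 for BTRC, was named after its value was seen and stood at 104 ± 4.23 CPM in CBS KO and 103 ± 1.86 CPM in WT (adjusted p = 0.815, edgeR). SNAI1 protein was not measured.

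Signals upstream of SNAI1 and ZEB transcription were called in 25 of 26 cases, 16 higher and 9 lower (median 0.30), where 77.2% of all genes were called. This is 61.5% higher and 34.6% lower, against 38.4% and 38.9% of all genes. HEY1, a Notch target, rose 7.94-fold, with 127 reads in CBS KO and 24 in WT, and SMAD7, the feedback inhibitor that TGF-beta induces, 2.78-fold (37.5 ± 1.04 CPM in CBS KO, 13.5 ± 0.187 CPM in WT). EGR1, which can activate SNAI1, had 12 ± 1.33 CPM in CBS KO and 68.8 ± 8.60 CPM in WT, and the ligand TGFB3 fell 2.75-fold (1.01 ± 0.312 CPM in CBS KO, 2.78 ± 0.357 CPM in WT). TGFB1, the main ligand, was named after its value was seen and rose 1.71-fold (106 ± 3.91 CPM in CBS KO, 61.9 ± 3.23 CPM in WT). Its log2 fold change was 0.15 with TPM. With TPM 5 of 25 were higher and 13 lower (20% and 52%, against 15.2% and 67.6% of all genes), and the median was -0.28, which is 0.26 above that of all genes. The 8 microRNA genes and hosts that act on ZEB or SNAI transcripts had no row and were not analysed here.

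Beside VIM, the genes of intermediate filaments and their linkers were called in all 13 cases tested, 8 higher and 5 lower (median 0.34), where 77.2% of all genes were called, 38.4% higher and 38.9% lower. With TPM 2 of 11 were higher and 7 lower (18.2% and 63.6%, against 15.2% and 67.6% of all genes). KRT80 had 180 reads in CBS KO and 13 in WT, and DES, the muscle filament, had 72 in CBS KO and 15 in WT, so the sizes of these rises rest on few reads. KRT20, a keratin of differentiated enterocytes, rose 5.54-fold (4.28 ± 0.292 CPM in CBS KO, 0.767 ± 0.0554 CPM in WT), and SYNM, which copolymerises with vimentin, fell 3.50-fold (2.80 ± 0.626 CPM in CBS KO, 9.79 ± 0.193 CPM in WT). KRT8, KRT18 and KRT19, the keratins of simple epithelium, were named after their values were seen and were 1.42-fold, 1.27-fold and 1.35-fold higher, but with TPM their log2 fold changes were -0.08, -0.24 and -0.16, and that of KRT18 was -0.02 with the library total. KRT8 stood at 2890 ± 231 CPM in CBS KO and 2040 ± 255 CPM in WT, while VIM summed to 7 reads over the CBS KO libraries.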

How the data were processed

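The authors deposited 1 table of 16781 genes with estimated read counts, FPKM and TPM for each library. Per the submitters' processing notes, the tools were edgeR, DESeq2, StringTie 2.1.6, HISAT2 2.2.1 and cutadapt 1.9, with GRCh38 as the build and without the role of each, and the use of strand is not given in the sources used here. The deposited estimated counts, of which 7.12 to 7.43% per library are not whole, were rounded. The deposited FPKM values divide reads by gene length and library total, and the deposited TPM values are scaled to a fixed sum, per the file headers. The authors' group means were not used. Genes were filtered with filterByExpr (13028 left), scaled with TMM (trimmed mean of M values) and tested with edgeR's quasi-likelihood test (edgeR 4.0.16, limma 3.58.1, DESeq2 1.42.0, R 4.3.3), with p-values adjusted by Benjamini-Hochberg over all genes tested. Standard errors come from the estimate and its F statistic. Replicate pairs differed by more than counting noise (chi-square per degree of freedom 1.98 to 13.5). Each library was counted as 1 sample, and this spread does not show whether the libraries were separate cultures.

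The members and the 17 gene lists were chosen with earlier results of these data known. Named genes are the members, up to 4 called genes per list with the largest change that reach 1 CPM in the higher group, CDH1, EPCAM, CDH2, FN1 and CBS, and the 3 nearest genes to each tested member; others are stated as chosen after their values were seen. The values of 1 mesenchymal effector that the rule names are not reported here; it stays in the list's counts and is left out of the plot of mean CPM. On simulated counts for this comparison (12917 genes tested), true changes of 1.5-fold were called in 86.6% of cases, of 2-fold in 95.4% and of 4-fold in 100%, and 12 unchanged genes were called. The simulation changed 67, 65 and 66 genes by these folds, up or down, with 1 dispersion for all genes. In the real libraries 77.2% of genes were called, so these rates describe the simulated setting only. Gene positions are from RefSeq GRCh38.p14, which held 16732 of 16781 Entrez IDs, and exons in the upstream windows are from GENCODE. Alternatives were other scalings, filters, tests and units, a replicate block, and leaving out each library.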

Additional observations from a re-analysis of the deposited data

How the results depend on the processing

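Leaving out each library in turn kept 2 regulators called higher and 2 lower, with 4744 to 5028 genes higher and 4818 to 5234 lower over all genes, against 4998 and 5062 with all libraries. Genes called higher numbered 2966 with the library total, 2679 with log2(FPKM + 1), 2673 with log2(FPKM + 0.1) and 1844 with log2(TPM + 1), which also called 8216 lower. Regulators called higher numbered 1 under each of these 4 settings, 5 without a filter and 4 with DESeq2, and 4 were called lower with TPM. OVOL1 turned to a log2 fold change of -0.29 (library total), -0.27 and -0.28 (FPKM with 1 and 0.1 added) and -0.50 (TPM), and ESRP1 to -0.19 (TPM). CDH1 turned to 0.01 with median-ratio factors, 0.00 over genes of at least 5 CPM, 0.01 without CBS KO replicate 3 and 0.02 without WT replicate 1, at an adjusted p of 0.817 or more, and ran from -0.05 to 0.02 over the 6 fits that leave out a library. QKI lost its call in the FPKM and TPM fits, and VWF, an endothelial marker, with DESeq2 (adjusted p = 0.179) and without each CBS KO replicate in turn (adjusted p 0.0581 to 0.104) or WT replicate 1 (adjusted p = 0.201, edgeR). Of the other values of named genes, 912 kept direction and call; of the counts per list, 374 stayed within 1.5 times the reported count and 76 did not. With the library total, FPKM and TPM the median of all genes shifted as given above, and with FPKM and TPM single genes shifted by differing amounts. The causes were not tested. With the library total the rare regulators stood at 1.99 (SNAI2) and 4.38 (ZEB2) times the limit and at ratios of 3.18 (ZEB1) and 2.78 (VIM), an alternative chosen after seeing the data. The replicate numbers are shared only as numbers: deviations of same-numbered libraries correlated at 0.0405, 0.0174 and 0.0220, and not every library correlated best with its own number. With the replicate block 4986 genes were higher and 5058 lower, and no regulator changed its call. Depth limits SNAI2, ZEB1, ZEB2 and VIM, which had at most 14 reads in a library.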

Other observations

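The deposited counts and FPKM of a gene imply the length that the authors' processing divided by in each library (reads over the product of FPKM and the library total). For GRHL2 it was 3.74 ± 0.380 kb in CBS KO and 4.31 ± 0.0933 kb in WT, a ratio of 0.867. Of 10953 genes with at least 1 FPKM in every library, 2.86% had a ratio as low, and the median ratio was 1. For ESRP2 it was 3.84 ± 0.0742 kb in CBS KO and 3.53 ± 0.0195 kb in WT, a ratio of 1.09. The implied lengths of SNAI1, ESRP1 and OVOL1 had ratios of 0.999, 0.990 and 0.997. No isoform was measured here, and the source of these differences was not tested.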
